A study of Homo sapiens with 29 samples.

Results

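A set of 7 genes of the RGS family, the regulators of G-protein signalling RGS1, RGS2, RGS10, RGS13, RGS14, RGS16 and RGS19, was followed in 2 human diffuse large B-cell lymphoma lines treated with an inhibitor of the kinase SYK. Every probe set annotated to 1 of these 7 symbols alone was taken, which gave 14 probe sets out of 22277 on the array (3 each for RGS1, RGS10 and RGS14, 2 for RGS16 and 1 each for RGS2, RGS13 and RGS19). The array measures 12165 genes by symbol. The groups were DHL6 and DHL4 cells given 1 µM R406, the active metabolite of the SYK inhibitor fostamatinib, for 2, 6, 24 or 48 h, and DHL6 and DHL4 cells given the solvent DMSO. Each group had 3 arrays except DHL4 in DMSO, which had 2, so that 29 arrays in 10 groups were compared. DMSO carries no time in the labels, so each line has 1 set of DMSO arrays that serves all 4 times. Comparisons within a line therefore share their controls, and hours of R406 cannot be told apart from hours of culture. Nothing in the labels states separate cultures for replicates, so the error behind each p-value could be technical alone. In such bulk RNA, fewer cells that express a gene and less RNA per cell cannot be told apart.

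RGS proteins speed up the hydrolysis of GTP by the alpha subunits of heterotrimeric G proteins, and so shorten the signal that a G-protein-coupled receptor sends after it has bound its ligand. In B cells they dampen the responses to chemokines such as CXCL12, the ligand of CXCR4, and thereby bear on how the cells move through lymphoid tissue. RGS1 and RGS13 are well known from germinal centre B cells, the stage from which many diffuse large B-cell lymphomas arise. SYK acts on another route, as the kinase that passes on the signal of the B-cell receptor.

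The arrays carried B cell transcripts: 4 of the 5 measured B cell markers (MS4A1, CD79A, CD79B and BLK) averaged at least 4 on the log2 scale of the array's RMA values in all 10 groups, and PAX5 did not. A group mean under 4 is called near the lower end of the values below, since RMA draws dim probe sets together there and understates their changes. All 7 T cell markers and all 6 measured monocyte markers lay under 4 in every group. Of 7 fibroblast and endothelium markers, 5 lay under 4 in every group, while DCN and PECAM1 did not: in DHL4 cells DCN averaged 4.42 at 24 h of R406, against 8.43 in DMSO, and PECAM1 averaged 7.64 at 24 h of R406, against 3.08 in DMSO. The mean of the 7 lay between 2.80 and 4.08 on single arrays, and the part of these 2 genes in the results below was not tested. Replicates of a group correlated at 0.978 to 0.996 over all probe sets. A set of 4 arrays had a narrower spread than the others (upper quartile 4.79 to 4.96): DHL6 48 h replicates 1 and 3, DHL6 6 h replicate 3 and DHL4 2 h replicate 3.

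RGS1, RGS13 and RGS2 stand in this order on chromosome 1 of the RefSeq annotation (GRCh38.p14), with no other protein-coding gene between them, and RGS16 lies elsewhere on that chromosome. RGS10, RGS14 and RGS19 lie on chromosomes 10, 5 and 20. RefSeq promoter windows (250 bases before to 50 after a gene's start) were found for all 7 genes. They are shown for the 3 neighbours, of which RGS2 and RGS13 fell in DHL6 cells at 3 times. RGS19, which fell in both lines, and RGS16, whose called changes differed in sign between the lines, are shown too. Capitals mark matches, on either strand, to 6 motifs: the TATA box TATAAA, the FOXO site GTAAACA, the cAMP response element half-site TGACG, the AP-1 site TGANTCA, the GC box GGGCGG and the E-box CACGTG.
RGS1 promoter (chr1:192575523-192575822, plus strand): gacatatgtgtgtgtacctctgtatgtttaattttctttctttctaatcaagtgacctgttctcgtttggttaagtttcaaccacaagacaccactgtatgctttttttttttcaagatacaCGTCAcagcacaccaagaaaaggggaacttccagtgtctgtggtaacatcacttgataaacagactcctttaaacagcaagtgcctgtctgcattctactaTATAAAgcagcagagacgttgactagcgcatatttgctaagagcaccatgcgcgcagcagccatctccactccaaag
RGS13 promoter (chr1:192635897-192636196, plus strand): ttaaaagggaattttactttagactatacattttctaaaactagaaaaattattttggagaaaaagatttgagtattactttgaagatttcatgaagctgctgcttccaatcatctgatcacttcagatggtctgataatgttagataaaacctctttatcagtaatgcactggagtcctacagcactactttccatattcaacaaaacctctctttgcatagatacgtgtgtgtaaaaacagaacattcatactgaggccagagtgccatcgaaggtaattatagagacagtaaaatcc
RGS2 promoter (chr1:192808789-192809088, plus strand): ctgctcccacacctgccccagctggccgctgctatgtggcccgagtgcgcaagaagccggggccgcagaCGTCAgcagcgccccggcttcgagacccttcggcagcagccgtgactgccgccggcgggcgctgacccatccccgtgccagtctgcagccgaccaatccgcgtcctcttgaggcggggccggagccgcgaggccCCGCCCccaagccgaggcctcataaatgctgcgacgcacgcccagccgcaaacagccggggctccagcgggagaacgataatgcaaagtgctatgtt
RGS19 promoter (chr20:64079915-64080214, minus strand): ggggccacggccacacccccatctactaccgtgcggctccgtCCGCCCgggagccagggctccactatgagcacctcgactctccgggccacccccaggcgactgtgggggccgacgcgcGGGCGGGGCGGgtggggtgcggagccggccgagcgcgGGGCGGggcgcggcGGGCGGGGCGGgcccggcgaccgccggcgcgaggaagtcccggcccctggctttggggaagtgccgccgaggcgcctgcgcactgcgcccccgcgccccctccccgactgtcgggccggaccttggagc
RGS16 promoter (chr1:182604340-182604639, minus strand): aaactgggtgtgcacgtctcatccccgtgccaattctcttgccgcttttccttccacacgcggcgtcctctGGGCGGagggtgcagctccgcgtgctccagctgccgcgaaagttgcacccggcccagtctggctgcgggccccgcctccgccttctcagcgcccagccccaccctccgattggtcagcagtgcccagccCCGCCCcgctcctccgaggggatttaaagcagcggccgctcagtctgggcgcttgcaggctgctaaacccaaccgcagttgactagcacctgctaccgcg
The RGS1 window held a TATA box starting at base -27 from the gene's start and a cAMP response element half-site at -128. The RGS2 window held the same half-site at -181 and a GC box at -47. The RGS13 window held none of the 6 motifs and had a GC content of 33.7%, against 41.7% for RGS1 and 69.7% for RGS2. The RGS19 window shown, with a GC content of 80.3%, held 6 GC boxes, 2 pairs of which overlapped by 1 base, and the RGS16 window held 2. A second RGS19 window, for another start and not shown, had a GC content of 72.3% and held 4 GC boxes and an E-box at -223. Over all 35116 promoter windows of this length, 11.5% held a TATA box, 24.6% the half-site, 45.0% a GC box, 7.71% the AP-1 site, 7.26% the E-box and 3.42% the FOXO site. A match describes letters only.

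All 7 genes differed between the lines in DMSO, without R406. RGS1, RGS2 and RGS13 were higher in DHL6 cells, while RGS10, RGS16, RGS19 and RGS14 were lower there. The limma fit over all 22215 non-control probe sets called 10 of the 14 RGS probe sets at an adjusted p below 0.05 (4 higher and 6 lower in DHL6), against 17.2% of all probe sets (8.44% higher and 8.74% lower). RGS1 (probe set 216834_at) read 6.86, 6.70 and 6.71 on the DHL6 DMSO arrays, against 3.22 and 2.91 on the DHL4 DMSO arrays. The difference of 3.69 on the log2 scale (SE 0.23, adjusted p = 4.26e-12) corresponds to 12.9-fold, and the DHL4 level is near the lower end, where differences are understated. RGS2 read 8.57, 8.51 and 8.63 in DHL6, against 5.69 and 5.41 in DHL4, a difference of 3.02 (SE 0.26, adjusted p = 1.78e-09, 8.10-fold). The lines did not overlap for either gene.

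RGS13 (210258_at) read 10.81, 10.60 and 10.63 in DHL6, against 10.14 and 9.90 in DHL4. Its difference of 0.66 (SE 0.16, adjusted p = 0.00313) no longer passed without DHL4 DMSO replicate 2, when it was 0.54. RGS19, which acts on the Gi family of alpha subunits, was lower in DHL6 by the widest margin: 6.54, 6.62 and 6.60 in DHL6 against 8.34 and 8.27 in DHL4, a log2 difference of -1.72 (SE 0.13, adjusted p = 1.51e-10). RGS10 differed by -1.18 (SE 0.13, adjusted p = 1.57e-07) and RGS16 by -1.13 (SE 0.21, adjusted p = 0.000282). RGS14 differed by -0.80 (SE 0.17, adjusted p = 0.00119) with both lines near the lower end, and by -0.59 without DHL4 DMSO replicate 1, when the call was lost. A second probe set differed in the same direction for RGS1 (202988_s_at, 1.67), RGS16 (209325_s_at, -0.71) and RGS14 (204280_at, -0.59). The call of 209325_s_at was lost without DHL4 DMSO replicate 2 (-0.56), without DHL6 DMSO replicate 3 (-0.55) and after quantile normalization (-0.64), and that of 204280_at without DHL4 DMSO replicate 2 (-0.50). RGS1 and RGS2 thus had the largest differences of the 7 main probe sets, the brightest of each gene.

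**Figure D1:**
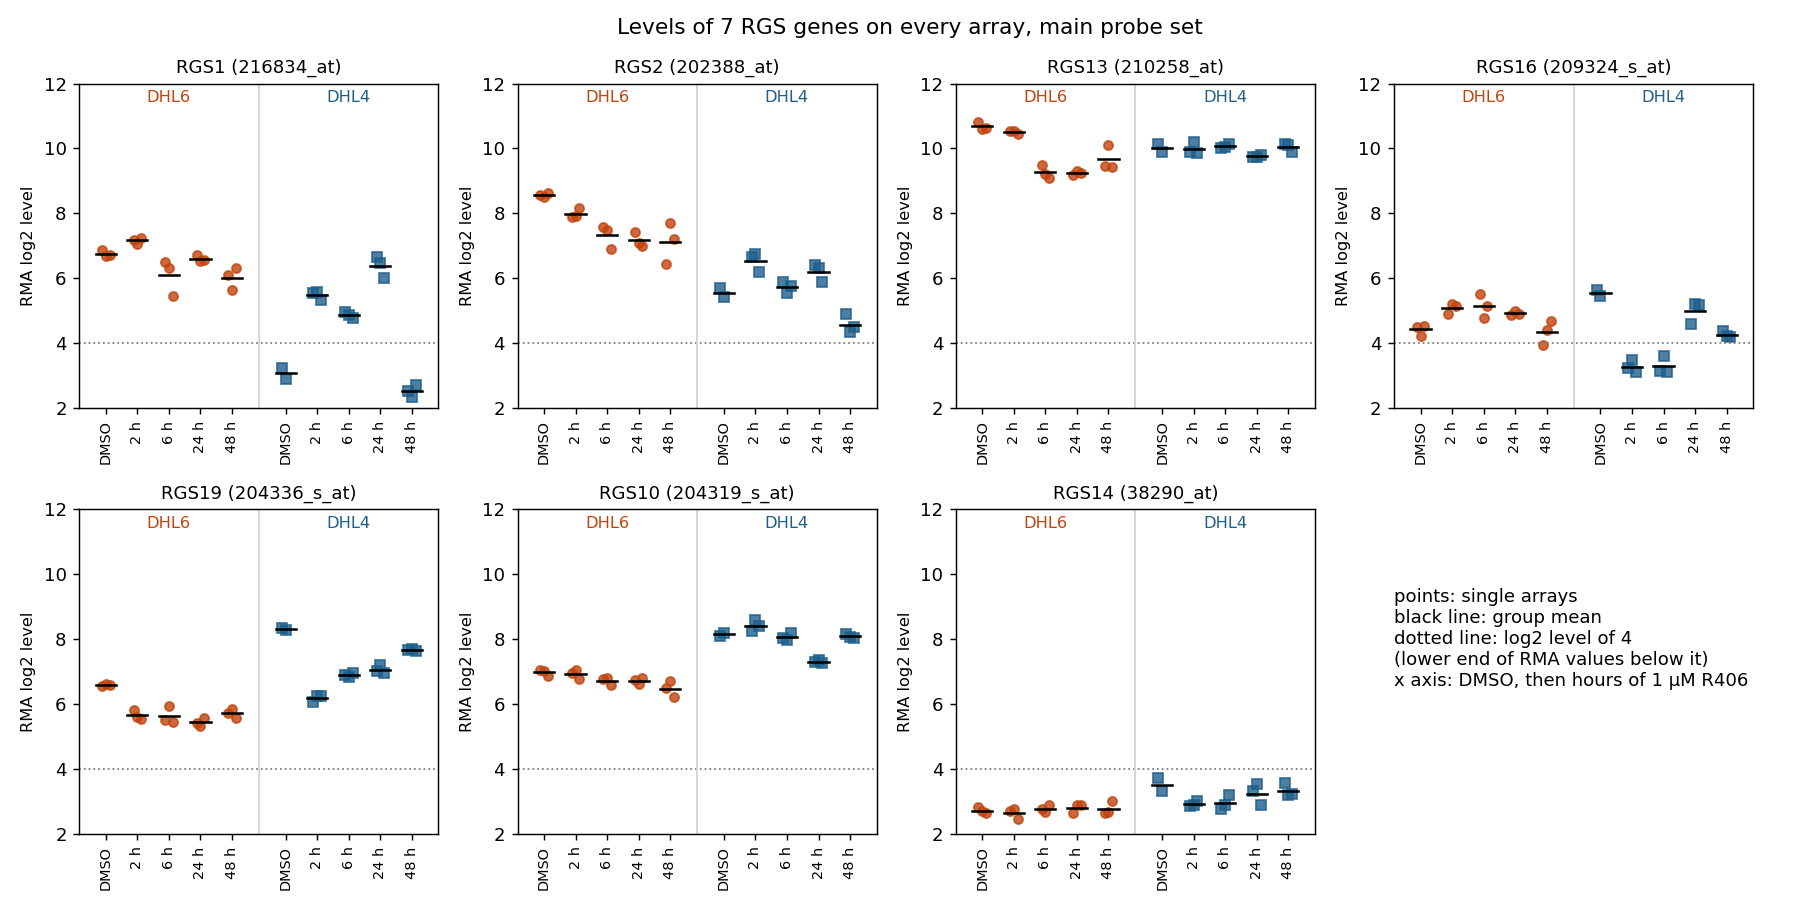
RMA log2 level (y axis) of the main probe set of each of the 7 RGS genes on every array, with DHL6 groups on the left and DHL4 groups on the right of each panel (x axis: DMSO, then 2, 6, 24 and 48 h of 1 µM R406). Points are single arrays, black lines group means, and the dotted line marks a log2 level of 4; RGS1 in DHL4 cells stands near the lower end in DMSO and at 48 h, and above it at 2, 6 and 24 h.

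Under R406 the 7 genes did not move together, and the lines gave different patterns. RGS19 fell at all 4 times in both lines. In DHL6 cells RGS2 and RGS13 fell at 6, 24 and 48 h, and RGS10 fell at 48 h. There RGS1 was called lower at 6 and 48 h and RGS16 higher at 2 and 6 h, each on its main probe set alone. In DHL4 cells RGS1 rose at 2, 6 and 24 h, RGS16 fell at 2, 6 and 48 h, RGS2 rose at 2 h and fell at 48 h, RGS10 fell at 24 h and RGS14 at 2 and 6 h, and RGS13 was not called at any time.

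In DHL6 cells the limma fit called 2 of the 14 RGS probe sets at 2 h (1 higher, 1 lower), against 4.37% of all probe sets (1.63% higher and 2.74% lower). At 6 h it called 5 (1 higher, 4 lower), against 6.89% (2.46% higher and 4.43% lower). At 24 h it called 3, all lower, against 12.4% (5.11% higher and 7.3% lower). At 48 h it called 5, all lower, against 20.3% (6.86% higher and 13.4% lower). The median change of the 7 main probe sets at 48 h was -0.74, against 0.04 over all probe sets. Over the 7894 probe sets of mean at least 4 the median was -0.24, and 6 of the 7 genes have such a probe set. The -0.74 is the value of RGS1, which was -0.44 after quantile normalization. The count at 48 h was 3 after quantile normalization, when 4002 of all 22215 probe sets were called, against 4499 in the fit reported. Probe sets of a gene are not independent, and 6 of the 14 lay under 4 in every group, so the counts describe the annotated sets and carry no test of the family.

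In DHL4 cells it called 8 of the 14 at 2 h (3 higher, 5 lower), against 8.04% of all probe sets (2.18% higher and 5.86% lower). At 6 h it called 6 (1 higher, 5 lower), against 10.6% (5.2% higher and 5.44% lower). At 24 h it called 4 (2 higher, 2 lower), against 26% (11.7% higher and 14.3% lower), so the members' share at 24 h was close to that of the array. At 48 h it called 3, all lower, against 6.32% (2.89% higher and 3.42% lower). Some of the 2 h calls were lost without DHL4 DMSO replicate 1, which leaves 1 DMSO array, as given by gene below. Without the 4 arrays of narrow spread the 24 h count was 8, and calls over all 22215 probe sets rose from 5785 to 6647.

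**Figure D2:**
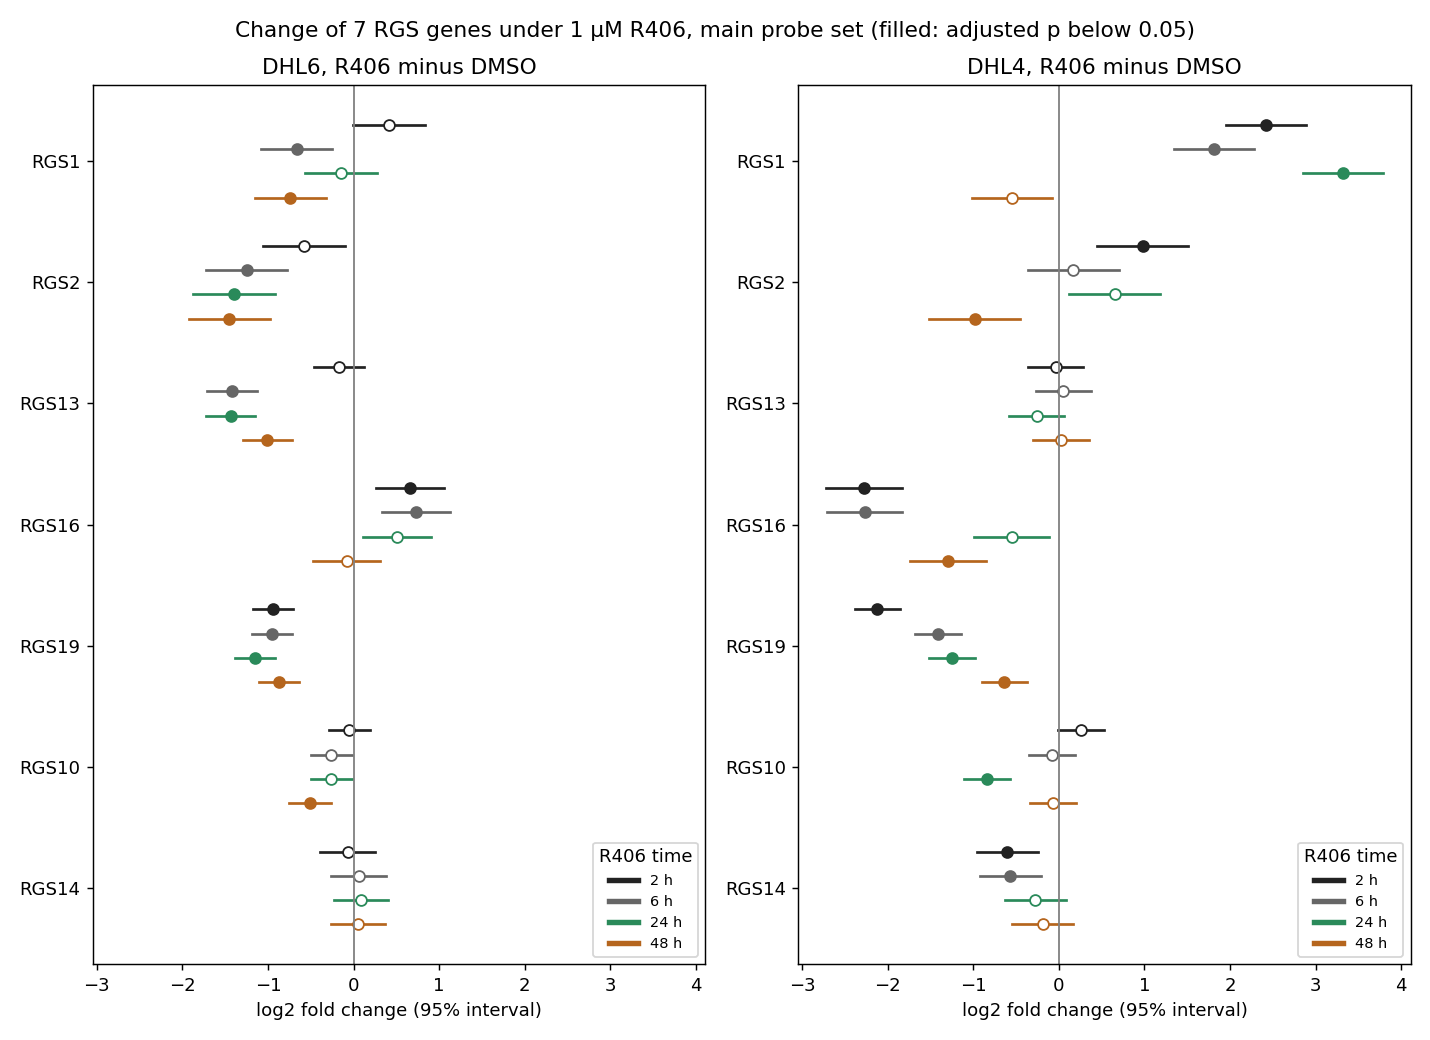
Log2 fold change of R406 minus DMSO (x axis) with its 95% interval for the main probe set of each RGS gene (y axis), DHL6 on the left and DHL4 on the right, with colours for 2, 6, 24 and 48 h. Filled points have an adjusted p below 0.05 in the limma fit; RGS19 lies left of 0 with filled points at all 4 times in both lines, and RGS16 lies right of 0 in DHL6 at 2 and 6 h and left of 0 in DHL4.

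RGS1, a small member that acts on Gi and Gq alpha subunits and dampens chemokine signals in B cells, changed most in DHL4 cells. On the DHL4 arrays it read 3.22 and 2.91 in DMSO, then 5.55, 5.59 and 5.32 at 2 h, 4.97, 4.87 and 4.78 at 6 h, 6.66, 6.46 and 6.01 at 24 h, and 2.52, 2.34 and 2.69 at 48 h. All arrays at 2, 6 and 24 h lay above both DMSO arrays, and all at 48 h lay below them. The log2 fold change was 2.42 at 2 h (SE 0.23, adjusted p = 5.55e-08), 1.81 at 6 h (SE 0.23, adjusted p = 2.41e-06) and 3.31 at 24 h (SE 0.23, adjusted p = 1.57e-11). These are 5.36-fold, 3.50-fold and 9.95-fold, each understated by the dim DMSO level. At 48 h the difference of -0.55 (95% interval -1.01 to -0.08) was not called (adjusted p = 0.198), with both groups near the lower end, although it was called without the 4 arrays of narrow spread.

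In DHL6 cells RGS1 read 6.86, 6.70 and 6.71 in DMSO, 7.19, 7.06 and 7.24 at 2 h, 6.51, 6.31 and 5.45 at 6 h, 6.72, 6.52 and 6.58 at 24 h, and 6.10, 5.63 and 6.33 at 48 h. The gene was above the lower end on every DHL6 array. It differed from DMSO by 0.41 at 2 h (adjusted p = 0.426) and by -0.15 at 24 h (adjusted p = 0.777), neither of which was called. All 2 h arrays lay above all DMSO arrays, on this probe set and on the second RGS1 probe set (202988_s_at, 0.40). Both 2 h differences were called in a fit of the compared groups alone. The call at 6 h (-0.67, SE 0.20, adjusted p = 0.0464) rested on replicate 3, the lowest array: without it the value was -0.35 and the call was lost. It was also lost on leaving out any 1 of the DMSO arrays (-0.62 to -0.70), after quantile normalization (-0.55) and in a fit of the compared groups alone. The call at 48 h (-0.74, SE 0.20, adjusted p = 0.0101) was lost without DHL6 48 h replicate 2 (-0.54) and after quantile normalization (-0.44). The second RGS1 probe set (202988_s_at), also above 4 in every DHL6 group, did not show these falls: it averaged 4.79 at 6 h and 5.08 at 48 h, against 4.96 in DMSO. Its differences of -0.17 at 6 h (95% interval -0.64 to 0.30) and 0.12 at 48 h (95% interval -0.35 to 0.58) were not called. At 6 h, replicate 3 was the highest array on this probe set (5.29) and the lowest on the main one (5.45). Ordered by group mean, RGS1 was highest in DHL6 at 2 h of R406. The DHL6 groups in DMSO and at 24 h, then DHL4 at 24 h, then DHL6 at 6 and 48 h followed, and each neighbour in this run overlapped with the next. Below them came DHL4 at 2 h, DHL4 at 6 h, DHL4 in DMSO and DHL4 at 48 h, with no overlap between neighbours.

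RGS2, which is selective for Gq alpha subunits, fell in DHL6 cells. It read 8.57, 8.51 and 8.63 in DMSO, 7.90, 7.92 and 8.16 at 2 h, 7.58, 7.48 and 6.90 at 6 h, 7.42, 7.09 and 7.0 at 24 h, and 6.45, 7.69 and 7.21 at 48 h. Every R406 array lay below every DMSO array. The change was -1.25 at 6 h (SE 0.23, adjusted p = 0.000605), -1.40 at 24 h (SE 0.23, adjusted p = 0.000107) and -1.45 at 48 h (SE 0.23, adjusted p = 4.49e-05), or 2.38-fold, 2.64-fold and 2.74-fold lower. At 2 h the difference of -0.58 was not called (adjusted p = 0.233). The 48 h value was -0.88, and still called, without the 4 arrays of narrow spread, which include 2 of the 3 arrays of that group.

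In DHL4 cells RGS2 read 5.69 and 5.41 in DMSO, 6.65, 6.75 and 6.19 at 2 h, 5.87, 5.54 and 5.76 at 6 h, 6.40, 6.33 and 5.89 at 24 h, and 4.89, 4.34 and 4.49 at 48 h. It was higher at 2 h by 0.98 (SE 0.26, adjusted p = 0.0162, 1.97-fold) and lower at 48 h by -0.98 (SE 0.26, adjusted p = 0.0192, 1.98-fold lower). The 2 h call was lost without DMSO replicate 1 (1.12), DMSO replicate 2 (0.84) or 2 h replicate 2 (0.87). The 48 h call was lost without DMSO replicate 1 (-0.84), DMSO replicate 2 (-1.12), 48 h replicate 2 (-0.87) or 48 h replicate 3 (-0.94). The differences at 6 h (0.17, adjusted p = 0.889) and 24 h (0.65, adjusted p = 0.0673) were not called, but the 24 h difference was called in most alternatives: after quantile normalization (0.79), with a replicate block (0.74), without 24 h replicate 3 (0.81) and, at the same value, in a fit of the compared groups alone, with dim probe sets left out, with an intensity trend and without the 4 arrays of narrow spread. All DHL6 groups stood above all DHL4 groups in mean level. The DHL6 groups at 6, 24 and 48 h and the DHL4 groups at 2 and 24 h overlapped with their neighbours in that order, as did DHL4 at 6 h and in DMSO, and DHL4 at 48 h was lowest, apart from the rest.

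RGS13, a small germinal centre member that dampens Gi and Gq signals, fell in DHL6 cells at 6, 24 and 48 h. It read 10.81, 10.60 and 10.63 in DMSO, 10.53, 10.54 and 10.46 at 2 h, 9.49, 9.21 and 9.09 at 6 h, 9.18, 9.30 and 9.25 at 24 h, and 9.48, 10.12 and 9.43 at 48 h. The arrays at 6, 24 and 48 h all lay below those in DMSO and at 2 h. The change was -1.42 at 6 h (SE 0.14, adjusted p = 1.01e-07), -1.44 at 24 h (SE 0.14, adjusted p = 5.23e-08) and -1.01 at 48 h (SE 0.14, adjusted p = 8.22e-06), or 2.67-fold, 2.71-fold and 2.01-fold lower. The 48 h value was -0.56, still called, without the 4 arrays of narrow spread. At 2 h the difference was -0.17 (95% interval -0.46 to 0.12, adjusted p = 0.763).

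In DHL4 cells the RGS13 arrays ranged from 9.73 to 10.19 over DMSO and all 4 times. None of the 4 differences was called, and each 95% interval included 0, with bounds of -0.36 to 0.29 at 2 h, -0.27 to 0.38 at 6 h, -0.58 to 0.06 at 24 h and -0.30 to 0.35 at 48 h. These intervals leave out a fall as large as the one measured in DHL6 at 6 or 24 h. DHL6 in DMSO and DHL6 at 2 h held the highest RGS13 levels, apart from each other and from the rest. The DHL4 groups at 6 and 48 h, in DMSO and at 2 h came next and overlapped, followed by DHL4 at 24 h and DHL6 at 48, 6 and 24 h, which overlapped in turn.

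RGS19, known also as the G alpha interacting protein and a regulator of the Gi family, fell at every time in both lines. In DHL6 cells it read 6.54, 6.62 and 6.60 in DMSO, 5.80, 5.59 and 5.55 at 2 h, 5.50, 5.95 and 5.45 at 6 h, 5.40, 5.33 and 5.57 at 24 h, and 5.73, 5.83 and 5.58 at 48 h. The changes were -0.94, -0.96, -1.15 and -0.87 at 2, 6, 24 and 48 h (SE 0.11 each), with adjusted p = 4.56e-06, 1.84e-06, 6.62e-08 and 3.58e-06, and each R406 group overlapped with the next in level. In DHL4 cells it read 8.34 and 8.27 in DMSO, 6.04, 6.23 and 6.26 at 2 h, 6.89, 6.83 and 6.95 at 6 h, 7.03, 7.19 and 6.95 at 24 h, and 7.66, 7.69 and 7.64 at 48 h. The level was lowest at 2 h, overlapped between 6 and 24 h, and at 48 h stood between these and DMSO.

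The RGS19 changes in DHL4 were -2.12 at 2 h (SE 0.13, adjusted p = 2.53e-11, 4.36-fold lower), -1.41 at 6 h (adjusted p = 1.42e-08), -1.25 at 24 h (adjusted p = 2.00e-08) and -0.64 at 48 h (SE 0.13, adjusted p = 0.00196, 1.55-fold lower). All 8 calls of RGS19 passed under every alternative and with any single array left out. No other member was called at all 4 times in either line. The RGS19 probe set was above the lower end on every array (5.33 to 8.34), so these changes are not compressed at that end.

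RGS16 is a small member that acts on Gi and Gq subunits and is known as a gene induced in activated lymphocytes. At 2 and 6 h its main probe set was called lower in DHL4 and higher in DHL6. In DHL4 cells its main probe set (209324_s_at) read 5.65 and 5.45 in DMSO, 3.23, 3.49 and 3.10 at 2 h, 3.12, 3.61 and 3.10 at 6 h, 4.60, 5.21 and 5.18 at 24 h, and 4.36, 4.20 and 4.19 at 48 h. All R406 arrays lay below both DMSO arrays, and those at 2 and 6 h stood near the lower end. The changes were -2.28 at 2 h (SE 0.21, adjusted p = 5.60e-08), -2.27 at 6 h (SE 0.21, adjusted p = 2.57e-08) and -1.30 at 48 h (SE 0.21, adjusted p = 0.000237). At 24 h the difference of -0.55 was not called (adjusted p = 0.0598), although it was called after centring on the median (-0.64), without 24 h replicate 2 (-0.66) and without 24 h replicate 3 (-0.65). With dim probe sets left out it was also called, at the same value of -0.55.

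In DHL6 cells RGS16 read 4.51, 4.22 and 4.52 in DMSO, 4.91, 5.19 and 5.13 at 2 h, 5.50, 4.77 and 5.16 at 6 h, 4.88, 4.99 and 4.91 at 24 h, and 3.94, 4.39 and 4.68 at 48 h. The arrays at 2, 6 and 24 h lay above all DMSO arrays, while those at 48 h overlapped with them. It rose by 0.66 at 2 h (SE 0.19, adjusted p = 0.0482) and 0.73 at 6 h (SE 0.19, adjusted p = 0.0172), or 1.58-fold and 1.66-fold. The 2 h call was lost on leaving out any single array (0.56 to 0.74) and the 6 h call without DMSO replicate 2 (0.63), 6 h replicate 1 (0.55) or 6 h replicate 3 (0.72). A fit of the compared groups alone also lost the 6 h call. Centring on the median (0.63), a replicate block and an intensity trend each lost the 2 h call. The differences at 24 h (0.51, adjusted p = 0.0911) and 48 h (-0.08, adjusted p = 0.816) were not called. The 24 h difference was called in a fit of the compared groups alone and with dim probe sets left out. In order of group means, DHL4 in DMSO, DHL6 at 6 h and at 2 h, DHL4 at 24 h and DHL6 at 24 h formed a run in which each overlapped with the next. DHL6 in DMSO and at 48 h and DHL4 at 48 h formed another below it, and DHL4 at 6 and 2 h, which overlapped, were lowest.

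RGS10, which acts on Gi family subunits and is abundant in immune cells, changed less. In DHL4 cells (204319_s_at) it read 8.10 and 8.20 in DMSO and 7.31, 7.36 and 7.26 at 24 h of R406, a fall of -0.84 (SE 0.13, adjusted p = 1.16e-05, 1.79-fold lower) that passed under every alternative. The DHL4 arrays at 2, 6 and 48 h ranged from 7.98 to 8.58, and their differences of 0.26, -0.08 and -0.07 were not called (adjusted p = 0.274, 0.900 and 0.919). In DHL6 cells it read 6.48, 6.71 and 6.21 at 48 h, against 7.04, 7.02 and 6.87 in DMSO. The fall of -0.51 (SE 0.12, adjusted p = 0.00227) was lost after quantile normalization (-0.23), without the 4 arrays of narrow spread (-0.26) and in a fit of the compared groups alone. The other DHL6 differences, -0.05 at 2 h and -0.26 at both 6 and 24 h, were not called. All DHL4 groups stood above all DHL6 groups, and the DHL6 groups overlapped with their neighbours.

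RGS14, a larger member that also binds Ras-family proteins, was near the lower end throughout: its 3 probe sets lay under 4 in all 10 groups. In DHL4 cells the main probe set (38290_at) read 2.85, 2.88 and 3.0 at 2 h and 2.77, 2.88 and 3.19 at 6 h, against 3.72 and 3.30 in DMSO. The falls of -0.60 at 2 h (adjusted p = 0.0281) and -0.57 at 6 h (adjusted p = 0.0327) were both lost without DHL4 DMSO replicate 1 (-0.39 and -0.36), and also without 2 h replicate 1 (-0.57) or 2 (-0.59) and without 6 h replicate 1 (-0.48) or 2 (-0.54). Both calls were lost with a replicate block too, and the 2 h call in a fit of the compared groups alone. A second probe set (204280_at) was also called at 2 h (-0.54, adjusted p = 0.0320) and 6 h (-0.71, adjusted p = 0.00256), and the remaining one (211021_s_at) at neither. The 2 h call of 204280_at was lost without DMSO replicate 1 (-0.62) or 2 (-0.45) or 2 h replicate 1 (-0.45), and its 6 h call without DMSO replicate 2 (-0.62). Its 2 h call was also lost in a fit of the compared groups alone. In DHL6 cells the main probe set ranged from 2.46 to 3.0 over all groups and was not called at any time, with differences of -0.07 to 0.09. All neighbours in the order of its 10 group means overlapped, so no order of levels is given.

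The response itself was compared between the lines as the change in DHL6 minus the change in DHL4. The limma fit called 5 of 14 RGS probe sets at 2 h, against 1.31% of all probe sets, 5 at 6 h against 5.58%, 6 at 24 h against 13.9%, and 2 at 48 h against 3.99%. RGS1 gave -2.01 at 2 h (SE 0.30, adjusted p = 0.000318), -2.47 at 6 h (SE 0.30, adjusted p = 5.55e-06) and -3.46 at 24 h (SE 0.30, adjusted p = 9.73e-09). RGS2 gave -1.56, -1.42 and -2.05 at these times (SE 0.35 each, adjusted p = 0.0181, 0.0124 and 0.000115). The 2 h call of RGS2 was lost without either DHL4 DMSO array (-1.70 and -1.42) and its 6 h call without DHL4 DMSO replicate 2 (-1.28). Neither gene was called at 48 h, where the 95% intervals were -0.82 to 0.44 for RGS1 and -1.18 to 0.25 for RGS2.

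RGS13 responses differed at 6 h (-1.47, SE 0.21, adjusted p = 4.56e-05), 24 h (-1.18, SE 0.21, adjusted p = 0.000229) and 48 h (-1.03, SE 0.21, adjusted p = 0.00434). The last of these was lost without DHL4 DMSO replicate 2 (-0.91), without the 4 arrays of narrow spread (-0.59) and in a fit of the compared groups alone. RGS16 differed the other way at every time, by 2.94 at 2 h (SE 0.29, adjusted p = 6.39e-07), 3.0 at 6 h (SE 0.29, adjusted p = 1.50e-07), 1.06 at 24 h (SE 0.29, adjusted p = 0.0116) and 1.22 at 48 h (SE 0.29, adjusted p = 0.0143). The last 2 were lost without DHL4 DMSO replicate 1 (0.96 and 1.12). RGS19 fell in both lines, and its responses differed at 2 h alone (1.18, SE 0.17, adjusted p = 0.000198), with differences of 0.46, 0.10 and -0.24 at 6, 24 and 48 h that were not called. The RGS10 responses differed by 0.58 at 24 h (SE 0.17, adjusted p = 0.0246), a call lost in 5 of 11 fits without 1 array. RGS14 responses were not called at any time.

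**Figure D3:**
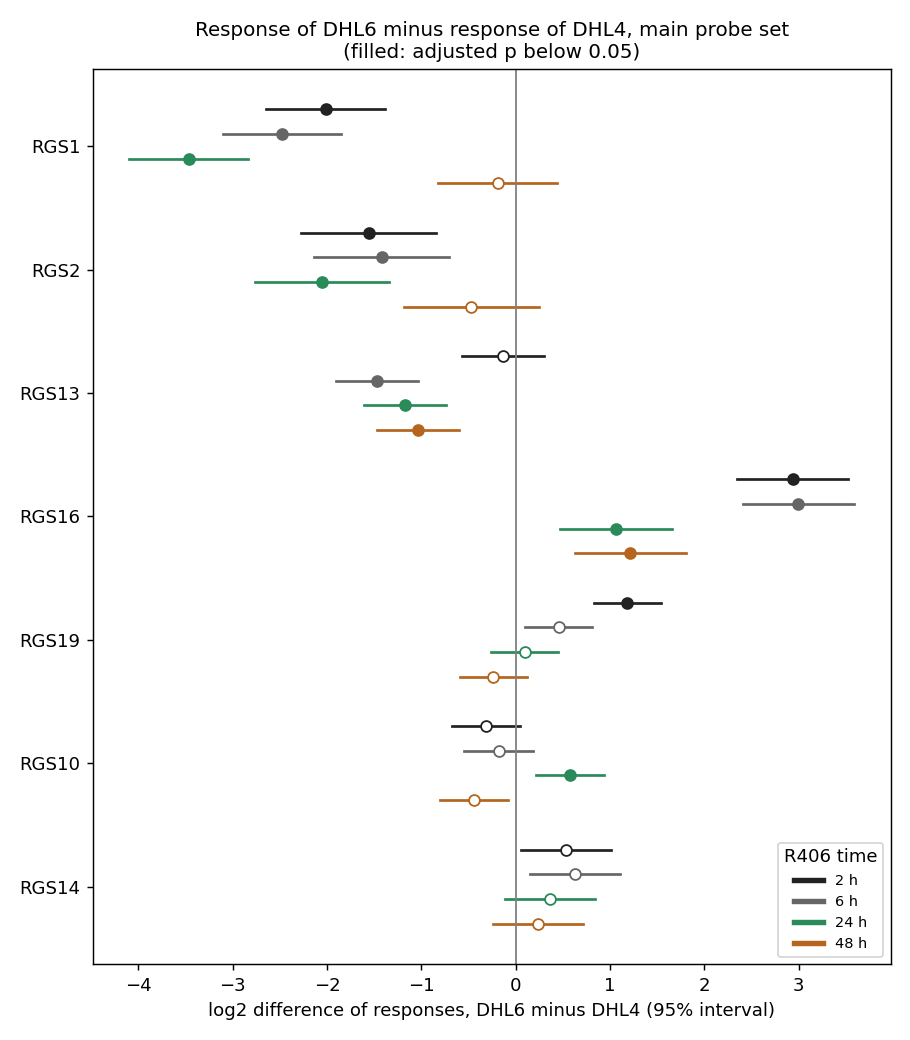
Response of DHL6 minus response of DHL4 (x axis, log2 difference with its 95% interval) for the main probe set of each RGS gene (y axis), with colours for 2, 6, 24 and 48 h of R406 and filled points at an adjusted p below 0.05. RGS1 lies left of 0 at 2, 6 and 24 h (down to -3.46), and RGS16 lies right of 0 at all 4 times (1.06 to 3.0).

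Between consecutive R406 times, which involve no DMSO array, the DHL4 pattern changed direction for several genes, while DHL6 gave no call after 6 h. In DHL4 cells the limma fit called 2 of 14 RGS probe sets from 2 to 6 h against 10.1% of all, 6 from 6 to 24 h against 19.6%, and 8 from 24 to 48 h against 21.8%. RGS1 was higher at 24 h than at 6 h by 1.51 (SE 0.20, adjusted p = 2.68e-06) and lower at 48 h than at 24 h by -3.86 (SE 0.20, adjusted p = 1.98e-13), or 14.5-fold, which is understated since the 48 h level is near the lower end. RGS2 was lower at 48 h than at 24 h by -1.63 (SE 0.23, adjusted p = 4.30e-06), and lower at 6 h than at 2 h by -0.81 (SE 0.23, adjusted p = 0.0243), a call lost in 4 of 6 fits without 1 array. RGS16 was higher at 24 h than at 6 h by 1.72 (SE 0.19, adjusted p = 1.49e-07) and lower at 48 h than at 24 h by -0.74 (SE 0.19, adjusted p = 0.00463). RGS10 was higher at 48 h than at 24 h by 0.77 (SE 0.12, adjusted p = 1.09e-05), after a step of -0.76 between 6 and 24 h (adjusted p = 1.60e-05). Its dim probe set 204316_at was called at both steps too, but the call between 6 and 24 h was lost in 6 of 6 fits without 1 array and that between 24 and 48 h in 2 of 6. RGS19 was higher at 6 h than at 2 h by 0.71 (SE 0.11, adjusted p = 0.000153) and at 48 h than at 24 h by 0.61 (SE 0.11, adjusted p = 0.00018).

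In DHL6 cells 2 of 14 were called from 2 to 6 h, against 3.51% of all probe sets. These were RGS13 (-1.24, SE 0.14, adjusted p = 4.88e-06) and RGS1 (-1.08, SE 0.20, adjusted p = 0.0022). The RGS1 call was lost in a fit of the compared groups alone, and its value was -0.75, still called, without 6 h replicate 3. From 6 to 24 h limma called 0 of 14 against 4.47% of all, with 2 at an unadjusted p below 0.05. From 24 to 48 h it called 0 of 14 against 6.04% of all, with 6 at an unadjusted p below 0.05. The share of all probe sets at that unadjusted cutoff was not counted, so these unadjusted counts are no result about the members. Without DHL6 48 h replicate 3 the calls from 24 to 48 h rose to 3, with 1156 of all 22215 probe sets called (1342 with all arrays). Without replicate 2 they rose to 2, with 2312 of all called.

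The brighter probe sets of RGS1 and of RGS16 changed in the same direction in DHL4 cells. In DHL6 cells those of RGS1 differed in sign at 48 h and those of RGS16 at 24 h. The second RGS1 probe set (202988_s_at) was called higher in DHL4 at 2 h (0.96, SE 0.25, adjusted p = 0.0168, lost without DHL4 DMSO replicate 1 or 2 h replicate 3) and 24 h (1.28, SE 0.25, adjusted p = 0.000275), in the direction of the main one, and it followed the main one over the 29 arrays with a Pearson correlation of 0.78 after the mean of each line was removed. The dimmest (202989_at) read 2.36 to 2.99 on all arrays and gave no call against DMSO. The second RGS16 probe set (209325_s_at) fell in DHL4 by -1.42 at 2 h (SE 0.22, adjusted p = 9.48e-05) and -1.24 at 6 h (SE 0.22, adjusted p = 0.000277), with a correlation of 0.76 with the main one, and was not called in DHL6. In DHL6 at 24 h it averaged 3.30, against 3.61 in DMSO, both near the lower end. The main RGS16 probe set averaged 4.93 there, against 4.42 in DMSO. For RGS10 both other probe sets lay under 4 in every group, and their correlations with the main one were 0.17 and 0.28. Levels of different probe sets were not set against each other, and arrays of 1 group are not independent points of these correlations.

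**Figure D4:**
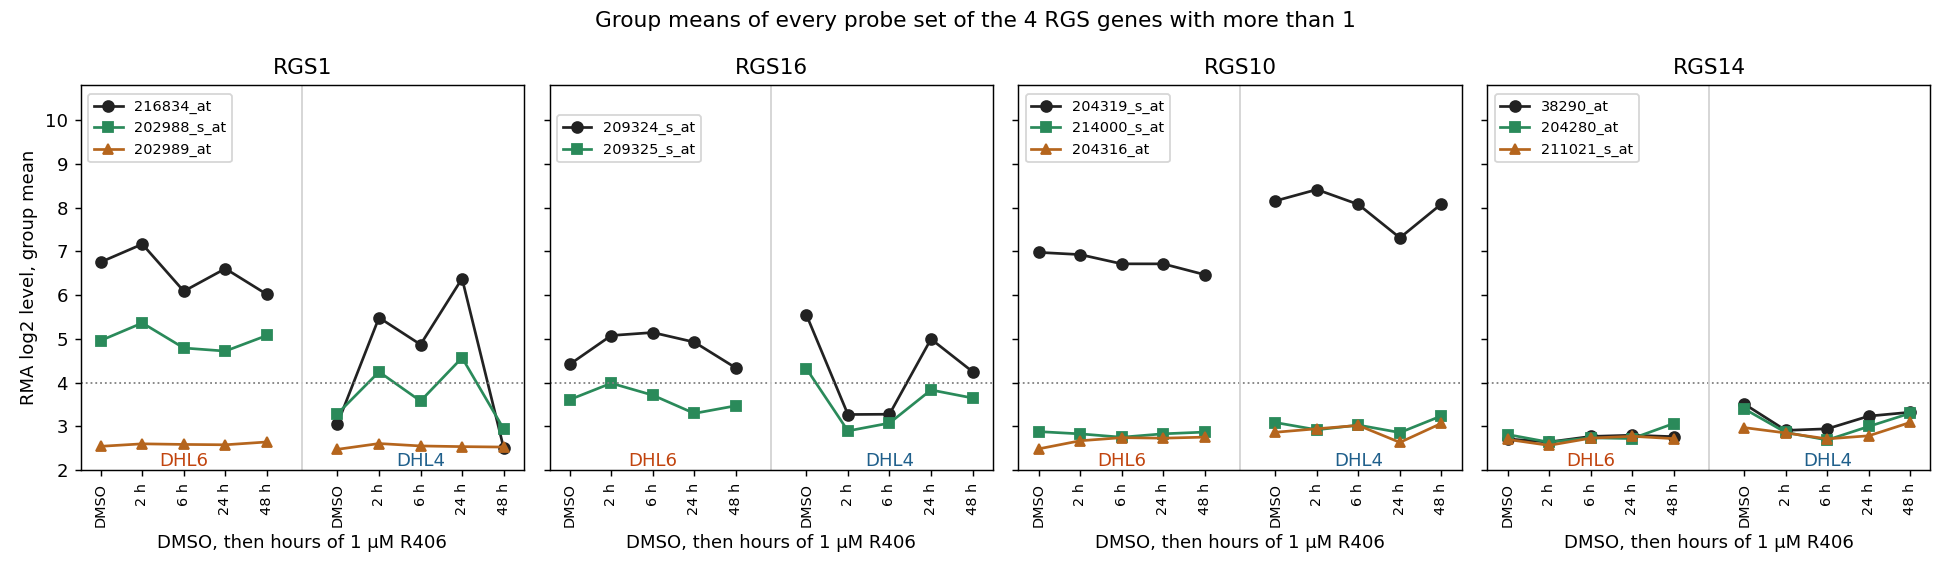
Group mean RMA log2 level (y axis) of every probe set of RGS1, RGS16, RGS10 and RGS14 over DMSO and 2, 6, 24 and 48 h of 1 µM R406 (x axis), DHL6 on the left and DHL4 on the right of each panel. Lines of 1 gene are to be compared in shape; both brighter RGS1 sets are high at 2 and 24 h in DHL4, and the 3 RGS14 sets stay under the dotted line at a log2 level of 4.

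Correlations among the 7 genes ranged widely. Over the 29 arrays, with the mean of each line removed, RGS1 and RGS2 had the highest correlation of any pair (Pearson r = 0.73), RGS14 and RGS16 had 0.58 and RGS1 and RGS19 the lowest with -0.54. RGS13 had 0.51 with its neighbour RGS2 and 0.07 with its neighbour RGS1. The arrays fall into 10 groups that share lines and treatments, so these values describe group patterns. Among 2720 genes whose group means differed by at least 1 within a line, those most like RGS1 were TSC22D3 (r = 0.88), a glucocorticoid-induced leucine zipper gene, RNGTT (0.86) and KBTBD2 (0.85). RGS2 was most like EVI2B (0.83), the immediate early transcription factor gene EGR1 (0.75) and TMEM156 (0.74). RGS13 was most like the RNA-binding protein gene CELF2 (0.91), the small GTPase gene ARF6 (0.89) and PDLIM1 (0.87). RGS19 was most like DDIT4 (0.91), an inhibitor of mTORC1 signalling, the sugar transporter gene SLC2A6 (0.90) and the lysosomal transcription factor gene TFEB (0.90). RGS10 was most like GPI, MCAM and HELLS (0.93, 0.93 and 0.92), RGS16 like DDIT3, NFX1 and PIEZO1 (0.68, 0.67 and 0.66), and RGS14 like AMPD2, LAT2 and CSRNP3 (0.74, 0.66 and 0.66).

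The other parts of the pathway were followed in lists of genes. Over all 12165 genes, each by its brightest probe set, 42.8% were called in any of the 8 comparisons with DMSO. None of the 5 lists below exceeded that share, so their counts are no result about the lists, and the genes named are those of largest change. Of the 10 measured genes among 14 other RGS family members, none averaged at least 4 over all arrays, and 2 were called in any comparison with DMSO: RGS3 in DHL4 at 2 h (-0.78, SE 0.20, adjusted p = 0.0125) and at 48 h (0.69, adjusted p = 0.0343), and RGS12 in DHL6 at 48 h (0.51, SE 0.14, adjusted p = 0.0116). RGS12 at 48 h and RGS3 at 2 h stood near the lower end. Of 15 genes of G-protein alpha subunits, the direct substrates of RGS proteins, 6 were called in any comparison. The largest was GNA13, lower in DHL6 at 48 h by -1.51 (SE 0.29, adjusted p = 0.000384) and at 24 h by -1.16 (adjusted p = 0.00690). GNAI3, a Gi alpha subunit gene, was lower in DHL6 at 48 h by -0.63 (SE 0.13, adjusted p = 0.00103), and GNA12 was higher in DHL4 at 24 h by 0.62 (SE 0.22, adjusted p = 0.0370). Of 13 measured beta and gamma subunit genes, 2 were called, GNB5 (0.69, SE 0.18, adjusted p = 0.0080) and GNG5 (-0.32, SE 0.08, adjusted p = 0.00878), both in DHL6 at 24 h. Most genes of these lists were dim. A mean of at least 4 over all arrays was reached by 4 of 15 alpha and 5 of 13 beta and gamma subunit genes. It was reached by 6 of 29 receptor and 9 of 26 effector and desensitisation genes, so a missing call need not mean an unchanged gene.

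Receptors had the largest single changes among the listed genes. Of 29 measured lymphocyte receptor genes of this class, 11 were called in any comparison with DMSO. In DHL4 at 24 h, the time with most calls on the array, 7 of 29 were called, against 26% of all probe sets. In DHL6, 1, 1, 2 and 3 of the 29 rose at 2, 6, 24 and 48 h, against 1.63%, 2.46%, 5.11% and 6.86% of all probe sets. At these times 3, 3, 3 and 5 fell, against 2.74%, 4.43%, 7.3% and 13.4%. In DHL4, 1, 4, 6 and 3 rose, against 2.18%, 5.2%, 11.7% and 2.89%. There 2, 3, 1 and 0 fell, against 5.86%, 5.44%, 14.3% and 3.42%. These small counts carry no test of the list. CXCR4, whose signal RGS1 and RGS13 are known to dampen, rose in all 8 comparisons. In DHL4 its level averaged 11.44 at 24 h of R406, against 6.51 in DMSO, a change of 4.93 (SE 0.13, adjusted p = 8.56e-19). In DHL6 it averaged 10.88 at 24 h, against 9.25 in DMSO, a change of 1.63 (SE 0.12). The cannabinoid receptor gene CNR1 rose in 5 of 8 comparisons, most in DHL4 at 24 h (3.41, SE 0.13, adjusted p = 5.74e-16). GPR18 fell in 5 of 8, most in DHL6 at 24 h (-3.09, SE 0.24, adjusted p = 1.11e-09), where its mean was 3.53, near the lower end.

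Of 26 measured genes of effectors and receptor desensitisation, 11 were called in any comparison with DMSO, and 6 in DHL4 at 24 h, against 26% of all probe sets. GRK5, a kinase that desensitises receptors and, with TIAL1, is a protein-coding neighbour of RGS10 in RefSeq, was lower in DHL4 at 2 h by -2.10 (SE 0.24, adjusted p = 1.79e-06). GPSM3, a regulator that binds Gi alpha subunits, was higher in DHL4 at 24 h by 1.67 (SE 0.13, adjusted p = 9.10e-11), and GPSM2, of the same class, was higher in DHL4 at 6 h by 1.31 (SE 0.19, adjusted p = 1.86e-05).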

How the data were processed

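RNA of DHL4 and DHL6 cells was hybridised to an Affymetrix human array with 22277 probe sets. The deposited values were log2 expression per probe set made with RMA, per the submitters' processing notes; no version was named, nor the set of arrays processed jointly. RMA corrects background, normalizes quantiles and fits a robust mean over probes, so dim probe sets are drawn together. No pair of arrays was identical. Deposited log2 values ran from 1.99 to 13.5. Depth does not apply to arrays, whose number limits the precision.

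The annotation table of the platform gave 1 symbol to 19724 probe sets (19707 updated by Entrez identifier), several to 568 and none to 1923, and 62 were controls. All 22215 others entered a single limma 3.58.1 fit (R 4.3.3, lmFit then eBayes) of 10 group means over 29 arrays, with 19 residual degrees of freedom and 5.15 from the prior. P-values were adjusted by Benjamini-Hochberg within each contrast, and a probe set was called at an adjusted p below 0.05. SE and 95% intervals come from this fit. A gene's main probe set is the one of highest mean over all arrays. All member probe sets are named; from each other list at most 3 called genes with the largest change, and 3 genes most like each member. The members and lists were chosen with earlier results of these data known. Replicate numbers of the groups were checked for pairing: deviations of same-numbered arrays correlated at -0.21 to 0.22 and only 2 of 20 pairs passed 0.1, so they were not treated as pairs. The fit was tested on simulated data. Alternatives were 1 probe set per gene, quantile normalization, centring, smaller fits, a replicate block, a filter on dim probe sets, an intensity trend, joint adjustment and leaving out arrays. Leaving out the 4 arrays of narrow spread was chosen after seeing the data. Promoter sequences are from RefSeq (GRCh38.p14), and the array annotation names no build. Figures were drawn with matplotlib 3.10.9.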

Additional observations from a re-analysis of the deposited data

Results flagged for a closer look

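The responses of the lines to R406 differed by a test of the difference itself (DHL6 minus DHL4, limma, adjusted p below 0.05) for 18 combinations of probe set and time. At 2 h these were RGS1 (216834_at, -2.01), RGS2 (-1.56), both RGS16 probe sets (209324_s_at, 2.94, and 209325_s_at, 1.80) and RGS19 (1.18). At 6 h they were RGS1 (-2.47), RGS2 (-1.42), RGS13 (-1.47) and both RGS16 probe sets (3.0 and 1.35). At 24 h they were both brighter RGS1 probe sets (216834_at, -3.46, and 202988_s_at, -1.52), RGS2 (-2.05), RGS10 (0.58), RGS13 (-1.18) and RGS16 (1.06). At 48 h they were RGS13 (-1.03) and RGS16 (1.22). Of these 18, 11 passed under every alternative and with any single array left out. The groups of 2 or 3 arrays are too small for a check of single outlying arrays.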

How the results depend on the processing

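Of the 82 calls of member probe sets over the 19 contrasts, 54 passed under every alternative and with any 1 array left out, among them 24 of 36 against DMSO. No called value changed sign under any alternative run. Counts of called member probe sets moved by over 1.5 times as follows. With 1 probe set per gene, 7 member probe sets remain and none changed its call, so the counts are out of 7. There DHL4 2 h gave 5 (8 of 14 in the fit reported), DHL4 24 h minus 6 h gave 3 (6) and DHL4 48 h minus 24 h gave 5 (8). After quantile normalization, DHL6 48 h gave 3 (5 in the fit reported), DHL4 6 h minus 2 h gave 4 (2) and DHL6 48 h minus 24 h gave 2 (0). Centring on the median gave 1 for DHL6 2 h (2). In fits of the compared groups alone, DHL6 2 h gave 5 (2), DHL6 6 h gave 3 (5), the response difference at 48 h gave 1 (2), DHL4 6 h minus 2 h gave 4 (2) and DHL6 6 h minus 2 h gave 1 (2). Keeping only probe sets of mean at least 4 leaves 7 of the 14 member probe sets. With this filter DHL4 2 h gave 5 (8) and DHL4 6 h gave 3 (6). DHL4 6 h minus 2 h gave 5 (2) and DHL6 48 h minus 24 h gave 2 (0). These counts are out of 7 and those in brackets out of 14, so a lower count need not be a lower share. None of the 7 lost a call under this filter. Over all probe sets the filtered fit called 1845 of 7894 for DHL4 2 h (1786 of 22215). For DHL4 6 h it called 2387 of 7894 (2364 of 22215). The intensity trend gave 1 for DHL6 2 h (2) and 1 for DHL6 48 h minus 24 h (0), and adjustment over all contrasts of a kind gave 2 for DHL6 48 h minus 24 h (0). Without the 4 arrays of narrow spread, DHL4 24 h gave 8 (4), DHL4 48 h gave 5 (3), the response difference at 48 h gave 1 (2), DHL4 6 h minus 2 h gave 4 (2), DHL6 24 h minus 6 h gave 1 (0) and DHL6 48 h minus 24 h gave 2 (0). Calls over all 22215 probe sets moved too. After quantile normalization they were 4002 for DHL6 48 h (4499) and 2062 for DHL4 6 h minus 2 h (2240). In fits of the compared groups alone they were 1254 for DHL6 2 h (971) and 1105 for DHL6 6 h (1531). Without the 4 arrays of narrow spread they were 6647 for DHL4 24 h (5785) and 2378 for DHL4 48 h (1403). The other counts, apart from those of the filter, were not set against those of all probe sets. The causes were not tested.

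With 1 array left out the counts ran from 4 to 7 for DHL4 2 h (8 with all arrays; 4 without DHL4 DMSO replicate 1), from 1 to 1 for DHL6 2 h (2), from 3 to 5 for DHL6 6 h (5; 3 without DHL6 DMSO replicate 2 or DHL6 6 h replicate 3), and from 3 to 5 for the response difference at 6 h (5; 3 without DHL4 DMSO replicate 2). They ran from 1 to 3 for the response difference at 48 h (2; 1 without either DHL4 DMSO array), from 1 to 2 for DHL4 6 h minus 2 h (2) and from 0 to 3 for DHL6 48 h minus 24 h (0). With a replicate block, DHL6 2 h gave 1 (2), and no other count moved by over 1.5 times; the replicate numbers did not pair the arrays, since 7 of 14 DHL4 arrays and 3 of 15 DHL6 arrays correlated best with their own number. The dim probe sets limit what can be seen: 6 of 14 lay under 4 in every group.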
